A study of Homo sapiens with 6 samples.

Results

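Cells take up amino acids through membrane carriers of the solute carrier (SLC) families, and 10 of these genes were followed here after knockdown of GDF15, a stress-induced secreted cytokine, in thyroid cancer cells. The members were taken by gene symbol from a table of 34738 genes, namely SLC7A11, SLC7A5, SLC3A2, SLC7A1, SLC1A4, SLC1A5, SLC38A1, SLC38A2, SLC6A9 and SLC43A1. Every one of the 10 was listed once and passed the filter on low expression. KHM-5M cells, a line established from anaplastic thyroid carcinoma, had received an siRNA against GDF15 (siGDF15) or served as controls (NC), with 3 libraries of poly(A) RNA per group. The sources differ on the controls, given as negative control, vector control or blank control, so an effect of transfection cannot be told apart from that of the knockdown if NC cells received no siRNA. They differ also on the line, since the labels give KHM-5M for every library and one legend of the paper gives TPC-1, another thyroid cancer line. The 3 libraries of a group are, per the methods, biological replicates, all of 1 cell line and, where treated, 1 siRNA. A mean is printed ± the SD of these libraries, with n = 3 throughout.

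Heteromeric carriers, built from a heavy and a light chain, are the first class of these proteins. SLC3A2 (CD98hc) is the heavy chain that brings a light chain to the cell surface, and SLC7A5 (LAT1, a carrier of leucine and other large neutral amino acids) and SLC7A11 (xCT, which imports cystine in exchange for glutamate) are light chains bound to it. SLC7A1 (CAT1) carries arginine and lysine without a heavy chain. SLC1A5 (ASCT2) and its relative SLC1A4 (ASCT1) exchange small neutral amino acids, among them glutamine for SLC1A5 and serine for SLC1A4. SLC38A1 and SLC38A2 import glutamine, alanine and other neutral amino acids together with sodium, SLC6A9 (GlyT1) imports glycine, and SLC43A1 (LAT3) carries large neutral amino acids without a partner. Many of these genes are known targets of ATF4, the transcription factor of the amino acid response, which binds a composite site with C/EBP proteins, and SLC7A11 is also a target of the antioxidant factor NRF2.

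The authors deposited an expected count and an FPKM value for each gene and library, where FPKM divides a gene's fragments by its length and by library size and so allows levels of different genes to be compared. Total expected counts were between 67569576 and 68025163 in NC and between 51738814 and 67793417 in siGDF15, where replicate 2 was the lowest. The least covered value among the members was 332 counts (SLC6A9 in siGDF15 replicate 2), against a limit of 12 counts that a count of 0 allows (3 read pairs, counting error only). GDF15 was at 19.3 to 23.1 FPKM in NC and 10.5 to 10.8 FPKM in siGDF15, a log2 fold change of -0.92 (SE 0.079, adjusted p = 2.4e-05 from edgeR). Of 14 thyroid follicular markers 13 were listed and 3 had a mean of at least 1 FPKM in each group, among them PAX8, while TG, SLC5A5 and NKX2-1 were below 0.2 FPKM on average in both groups. The summed level of the thyroid markers was 61.8 to 72.2 FPKM in NC and 83.6 to 86.6 FPKM in siGDF15. Most of it was PAX8, at 59.1 and 79.4 FPKM on average, while HHEX was at 4.23 and 2.67 FPKM and FOXE1 at 2.76 and 2.83 FPKM. The summed level of 6 epithelial markers was 108 to 160 FPKM in NC and 136 to 147 FPKM in siGDF15. That of 10 markers of other cells (9 listed) was 17.8 to 19.6 and 16.1 to 18.1 FPKM, nearly all of it CD68. Mitochondrially encoded genes held 6.39 to 6.78% of counts in NC and 8.53 to 9.17% in siGDF15, and the part of these shifts in the results was not tested.

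Of the 10 transporters, 7 fell after GDF15 knockdown, none rose, and 3 did not pass the test. The falls ranged from 4.47-fold for SLC1A4 to 1.16-fold for SLC7A1. The 3 deepest were those of SLC1A4, SLC7A11 and SLC6A9, and the members that did not pass were SLC7A5, SLC3A2 and SLC38A2. A gene was called at an adjusted p under 0.05 in the quasi-likelihood test of edgeR, applied to the counts of the 11867 genes whose FPKM averaged 1 or more. In this comparison 61.4% of all tested genes were called, 30.0% higher and 31.4% lower in siGDF15. The members' 7 lower calls of 10 stand beside that 31.4%, and since the genes were chosen with earlier results known, the difference was not tested. The share of higher genes among those called was 48.9%, and 36.6% when counts were scaled by their total alone. With a log2 fold change of at least 1 also required, 3 of the 10 members fell, against 7.81% of tested genes called in either direction and 4.78% lower. All 3 siGDF15 libraries were below all 3 NC libraries for 7 members, against 42.8% of tested genes (68.4% in either direction). The median log2 fold change over the 10 members was -0.47, beside 0.0026 over all tested genes.

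**Figure D1:**
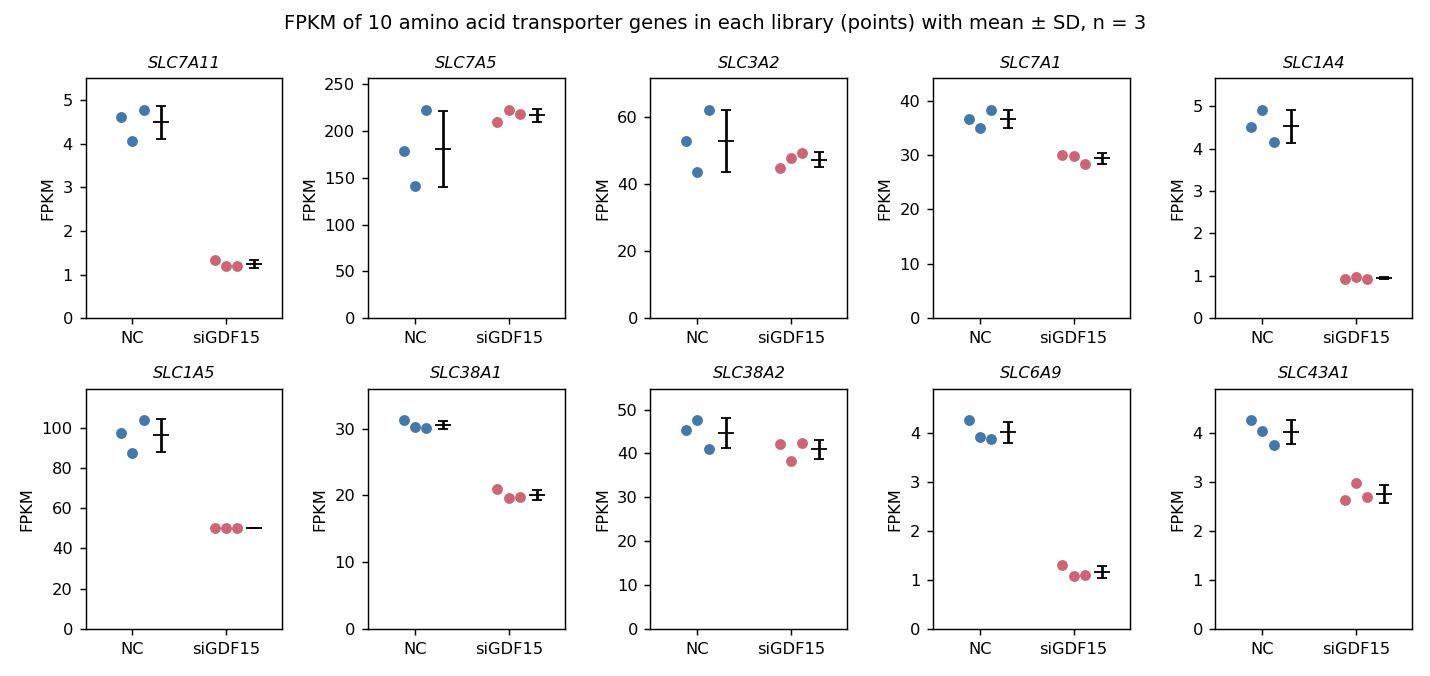
FPKM (vertical axes, each starting at 0) of the 10 transporter genes in the 3 NC libraries (blue) and the 3 siGDF15 libraries (red), with the mean ± SD of each group in black. The groups do not overlap for 7 genes, and they overlap for SLC7A5, SLC3A2 and SLC38A2.

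Before the values of single genes, the promoters are described by the letters they hold. Many members are known ATF4 targets, so their choice cannot be taken as independent of such sites. RefSeq windows (GRCh38.p14, from 250 bases before to 50 after each annotated start) were at hand for 9 of the 10 members in 16 windows. SLC7A11 had none. Both strands were searched for TGATGNAA, the C/EBP-ATF response element (CARE) that ATF4 recognises, for TGACNNNGC, the antioxidant response element (ARE) that NRF2 recognises, and for CACGTG, the E-box of MYC and related factors. A CARE match was found in 5 of the 9 member genes and in 5 of the 16 windows, while 3.62% of all 35116 windows and 4.46% of all genes with a window held one. The members had more windows per gene (16 for 9 genes) than all genes (35116 for 27305), and the difference in shares was not tested. The stretches around these matches are shown because they belong both to the gene that fell most and to one that did not pass. Capitals mark the match, the strand is that of the gene, and positions count from the start site.
SLC1A4, chr2:64989362-64989429, plus strand, match at -7: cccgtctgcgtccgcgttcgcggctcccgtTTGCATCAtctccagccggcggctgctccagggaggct
SLC1A5, chr19:46784874-46784941, minus strand, match at -97: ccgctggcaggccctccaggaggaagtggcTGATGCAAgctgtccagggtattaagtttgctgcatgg
SLC38A1, chr12:46266483-46266550, minus strand, match at -4: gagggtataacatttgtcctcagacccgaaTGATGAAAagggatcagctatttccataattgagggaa
SLC7A1, chr13:29595644-29595711, minus strand, match at 8: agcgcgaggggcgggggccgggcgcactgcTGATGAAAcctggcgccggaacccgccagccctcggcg
SLC3A2, chr11:62881706-62881748, plus strand, match at 38: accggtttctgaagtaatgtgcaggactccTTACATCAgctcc
In SLC1A4 and SLC3A2 the letters lie on the opposite strand, so the match reads TTGCATCA and TTACATCA. Except for SLC7A1, the starts of these windows lie inside the gene spans given with the values below, so they are not the outermost starts. The log2 fold changes of these 5 genes run from -2.16 for SLC1A4 to -0.06 for SLC3A2, and SLC6A9, whose window holds no CARE match, had -1.67.

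ARE letters were found in 4 of the 9 member genes and 4 of the 16 windows, beside 16.1% of all genes and 13.3% of all windows. CACGTG was found in 3 of the 9 genes and 3 of the 16 windows, beside 8.77% of all genes and 7.26% of all windows. No matches of different motifs shared a base. SLC7A5, the member with the highest level in both groups, held an ARE and an E-box match and no CARE match, and SLC3A2 held an ARE match in the same window as its CARE match. These stretches are shown because both genes are members whose change did not pass the test.
SLC7A5, chr16:87869471-87869539, minus strand, ARE match at -2: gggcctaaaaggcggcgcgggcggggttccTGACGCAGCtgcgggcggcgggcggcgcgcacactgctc
SLC7A5, chr16:87869602-87869667, minus strand, E-box match at -130: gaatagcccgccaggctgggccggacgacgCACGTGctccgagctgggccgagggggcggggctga
SLC3A2, chr11:62881632-62881700, plus strand, ARE match at -37: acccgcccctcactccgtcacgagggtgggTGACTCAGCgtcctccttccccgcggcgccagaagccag
The other ARE matches were in SLC7A1 and SLC1A5, and the other E-box matches in SLC1A5 and SLC43A1. A match describes the letters of the window and not a bound site.

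Of the subunits of the heteromeric carriers, SLC7A11 fell and the other members did not pass. The cystine carrier SLC7A11 (ENSG00000151012, chr4:138164097-138242349, minus strand, GRCh38 as for all gene spans) was at 4.62, 4.07 and 4.78 FPKM in NC replicates 1 to 3 and at 1.34, 1.20 and 1.19 FPKM in siGDF15 replicates 1 to 3. Every siGDF15 library was thus far below the lowest NC library. From 4.49 ± 0.375 FPKM in NC to 1.24 ± 0.0865 FPKM in siGDF15, SLC7A11 fell by 1.75 on the log2 scale (SE 0.085, adjusted p = 1.4e-06 from edgeR), or 3.35-fold. Only 0.902% of tested genes had a log2 fold change as low or lower. In bulk RNA, fewer cells with a transcript and less of it per cell cannot be told apart.

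The other light chain, SLC7A5 (ENSG00000103257, chr16:87830023-87869507, minus strand), was the most abundant member, above 98.9% of tested genes in NC. Its levels were 179, 141 and 222 FPKM in NC and 209, 223 and 218 FPKM in siGDF15. NC replicate 3 was as high as the siGDF15 libraries and NC replicate 2 was well below them, so the groups overlapped. The log2 fold change was 0.37 (SE 0.14, 95% interval 0.040 to 0.69, adjusted p = 0.052 from edgeR), just outside the threshold. Without NC replicate 3 it was 0.55 with an adjusted p of 7.5e-04 from edgeR, without NC replicate 2 it was 0.21 and did not pass, and over all alternatives the adjusted p lay between 7.5e-04 and 0.19 with the sign unchanged. The spread among NC libraries was wide for this gene, 1.58-fold from lowest to highest, a range reached by 6.07% of tested genes, while among siGDF15 libraries it was 1.06-fold. Its pseudogenes SLC7A5P1 and SLC7A5P2 had at most 7 and 27 counts in any library, against at least 50355 for SLC7A5.

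The heavy chain SLC3A2 (ENSG00000168003, chr11:62856004-62888880, plus strand) was at 52.7, 43.7 and 62.2 FPKM in NC and at 44.8, 47.9 and 49.3 FPKM in siGDF15. The siGDF15 values lay inside the NC range. With a log2 fold change of -0.06 (SE 0.12, 95% interval -0.32 to 0.21, adjusted p = 0.70 from edgeR), the data allow anything from a 0.799-fold to a 1.16-fold level in siGDF15. As for SLC7A5, NC replicate 2 was the lowest library and NC replicate 3 the highest, which was also the order of SLC7A11, SLC7A1 and SLC1A5 and of 25.7% of all tested genes.

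Because the subunits act in pairs, their ratio within each library was compared, a quantity that library scaling does not touch. SLC7A5 was at 3.39, 3.23 and 3.57 times the FPKM of SLC3A2 in NC and at 4.68, 4.65 and 4.43 times in siGDF15. These ranges did not overlap although those of the single genes did. The ratio was 1.35-fold higher in siGDF15 (two-sided p = 0.1 by exact permutation, the lowest that 3 libraries a group can give, and 0.1 also after adjustment over the 6 pairs of members compared). For SLC7A11 the ratio to SLC3A2 was 0.0859 ± 0.00824 in NC and 0.0264 ± 0.00316 in siGDF15, 3.26-fold lower. Measured against SLC7A5 itself, SLC7A11 was 4.40-fold lower in siGDF15, with every siGDF15 library below every NC library (exact permutation test, p = 0.1 for both ratios).

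**Figure D2:**
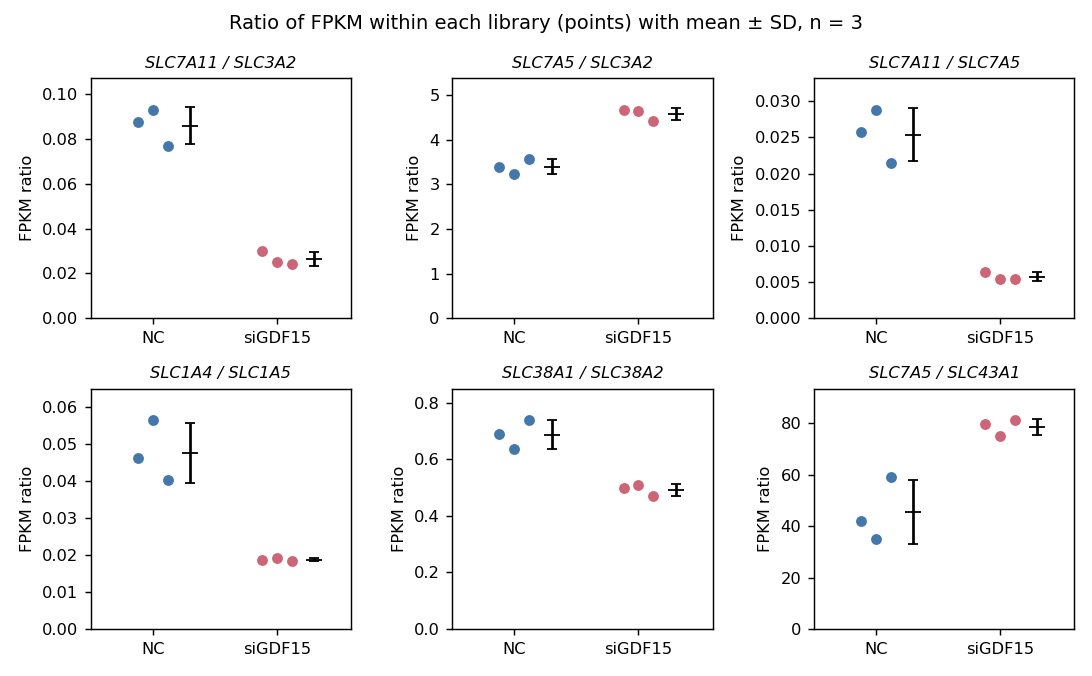
Ratio of the FPKM values of 2 members within each library (vertical axes, each starting at 0) for 6 pairs, in NC (blue) and siGDF15 (red) libraries, with the mean ± SD of each group in black. In all 6 pairs the 3 siGDF15 libraries lie on one side of the 3 NC libraries, above them for SLC7A5 against SLC3A2 and SLC43A1 and below them for the other 4 pairs. Several pairs share a member, so the 6 are not separate results.

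The exchangers of the SLC1 family both fell. SLC1A4 (ENSG00000115902, chr2:64988477-65023865, plus strand) was at 4.50, 4.92 and 4.16 FPKM in NC and at 0.926, 0.966 and 0.923 FPKM in siGDF15. All siGDF15 libraries were below 1 FPKM and within 1.05-fold of each other. SLC1A4 thus passed the filter, a mean of 1 FPKM over all libraries, only through NC, and its rank below counts only genes past that filter. The log2 fold change of SLC1A4 was -2.16 (SE 0.082, adjusted p = 5.8e-07 from edgeR), or 4.47-fold lower, and 0.126% of tested genes had one as low or lower. Its promoter stretch, with a CARE match next to the start site, is the first one printed above.

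SLC1A5 (ENSG00000105281, chr19:46774883-46788594, minus strand) was the second most abundant member, at 97.6, 87.4 and 104 FPKM in NC and 50.1, 50.3 and 50.0 FPKM in siGDF15. Its siGDF15 libraries were nearly identical and all far below NC. The log2 fold change was -0.84 (SE 0.067, adjusted p = 1.6e-05 from edgeR), a 1.78-fold fall that stayed short of the fold threshold. Relative to SLC1A5, SLC1A4 was 2.51-fold lower in siGDF15, with ratios of 0.0475 ± 0.00818 in NC and 0.0187 ± 0.000415 in siGDF15 and no overlap (exact permutation test, p = 0.1).

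The sodium-coupled importers SLC38A1 and SLC38A2 are neighbours on chromosome 12, separated by 88170 bases and transcribed in the same direction. SLC38A1 (ENSG00000111371, chr12:46183063-46270017, minus strand) was at 31.2, 30.2 and 30.2 FPKM in NC and at 21.0, 19.5 and 19.8 FPKM in siGDF15. Its NC libraries were within 1.04-fold of each other, the tightest NC group among the members. SLC38A1 fell by 0.50 on the log2 scale (SE 0.044, adjusted p = 2.6e-05 from edgeR), or 1.41-fold.

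SLC38A2 (ENSG00000134294, chr12:46358188-46372773, minus strand) was at 45.4, 47.5 and 40.9 FPKM in NC and at 42.1, 38.4 and 42.3 FPKM in siGDF15, and the groups overlapped. Its log2 fold change was -0.02 (SE 0.061, 95% interval -0.16 to 0.12, adjusted p = 0.80 from edgeR), a sign that turned in 3 of 16 alternatives. The lower end of this interval is above the upper end of that of SLC38A1, -0.40. The ratio of SLC38A1 to SLC38A2 was 0.687 ± 0.0505 in NC and 0.492 ± 0.0205 in siGDF15, 1.39-fold lower without overlap (exact permutation test, p = 0.1).

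The glycine importer SLC6A9 had the third deepest fall of the members. SLC6A9 (ENSG00000196517, chr1:43991500-44031467, minus strand) was at 4.25, 3.91 and 3.86 FPKM in NC and at 1.30, 1.09 and 1.10 FPKM in siGDF15. Every siGDF15 library was far below the lowest NC library. It fell by 1.67 on the log2 scale (SE 0.095, adjusted p = 2.6e-06 from edgeR), or 3.19-fold. CCDC24, on the opposite strand of the same locus, had at most 1.62 FPKM and 438 counts, and ENSG00000230615, also on that strand, at most 0.235 FPKM and 191 counts. The lowest library of SLC6A9 had 332 counts. Whether the authors' counting used strand is not given in the sources used here.

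SLC43A1 (ENSG00000149150, chr11:57484534-57515780, minus strand), the large neutral amino acid carrier without a partner, was at 4.26, 4.05 and 3.76 FPKM in NC and at 2.63, 2.97 and 2.69 FPKM in siGDF15, with no overlap. The log2 fold change was -0.43 (SE 0.093, adjusted p = 0.0038 from edgeR). SLC7A5, which carries many of the same amino acids, was 45.3 ± 12.5 times as abundant as SLC43A1 in NC and 78.6 ± 3.25 times in siGDF15 (exact permutation test, p = 0.1).

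The arginine and lysine carrier SLC7A1 (ENSG00000139514, chr13:29509414-29595688, minus strand) was at 36.7, 35.0 and 38.3 FPKM in NC and at 30.0, 29.9 and 28.3 FPKM in siGDF15. The groups did not overlap, but the fall was the smallest of the 7 called. Its log2 fold change was -0.21 (SE 0.053, adjusted p = 0.0079 from edgeR), or 1.16-fold, and 31.9% of tested genes had one as low or lower.

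**Figure D3:**
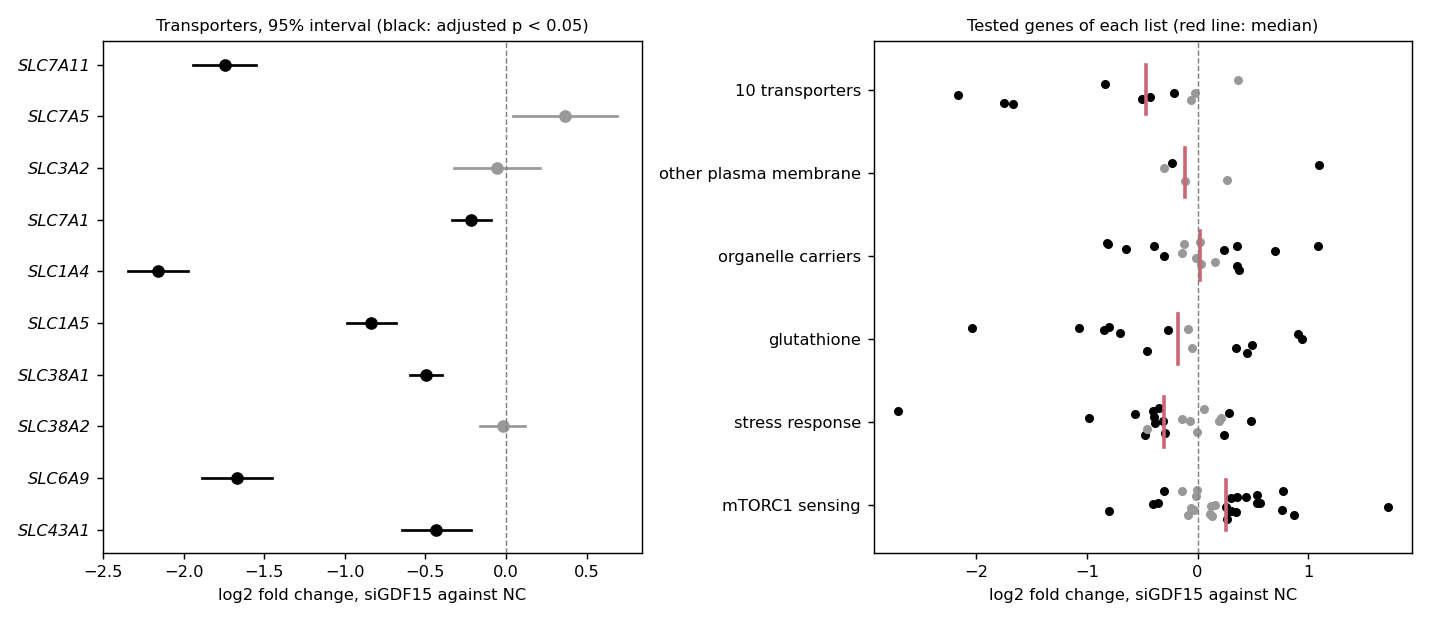
Left, log2 fold change of siGDF15 against NC (horizontal axis) for each transporter with its 95% interval, black where the adjusted p was under 0.05. Right, the same quantity for the tested genes of 6 lists (points, black where called) with the median of each list as a red line. SLC1A4, SLC7A11 and SLC6A9 stand at the left end of the members, and the medians run from -0.47 for the 10 transporters to 0.25 for the mTORC1 sensing genes.

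Ordered by level in NC, SLC7A5 came first, followed by SLC1A5, SLC3A2, SLC38A2, SLC7A1 and SLC38A1 between 181 and 30.5 FPKM on average, and by SLC1A4, SLC7A11, SLC43A1 and SLC6A9 between 4.53 and 4.01 FPKM. The ranges of SLC3A2 and SLC38A2 overlapped, as did those of each neighbouring pair among the last 4, so these neighbours do not differ beyond their spread. In siGDF15 the first 6 kept their order. SLC43A1 was then seventh at 2.76 ± 0.184 FPKM, above SLC7A11 and SLC6A9, which overlapped, and SLC1A4 was last at 0.938 ± 0.0237 FPKM.

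Added up per library, the 10 genes gave 402 to 514 FPKM in NC and 404 to 415 FPKM in siGDF15, so the sums overlapped. The shares of SLC7A5 and SLC1A5 did not, while those of SLC3A2 and SLC38A2 did. SLC7A5 made up 35.1 to 43.2% of the sum in NC and 51.9 to 53.7% in siGDF15, while SLC1A5 made up 20.2 to 21.8% and then 12.1 to 12.4%. Without SLC7A5 the sum was 278 ± 15.8 FPKM in NC and 194 ± 1.67 FPKM in siGDF15.

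**Figure D4:**
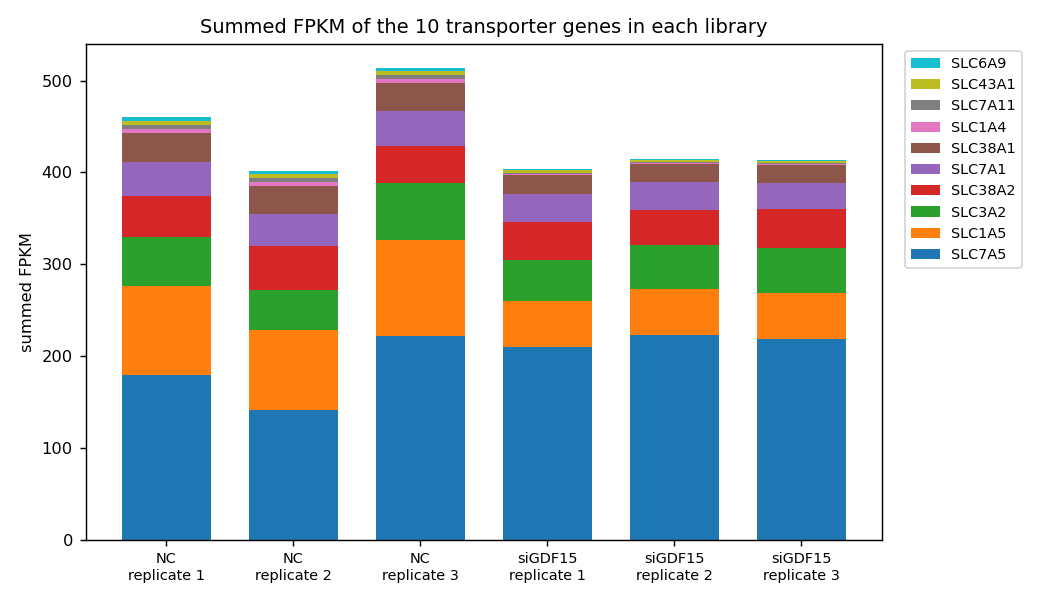
Summed FPKM of the 10 transporter genes (vertical axis) in each of the 6 libraries, stacked by gene. The totals of the groups overlap, at 402 to 514 in NC and 404 to 415 in siGDF15, while the share of SLC7A5 (lowest segment) is larger and that of SLC1A5 (the segment above it) smaller in each siGDF15 library than in any NC library.

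To show which other genes shared the pattern of the 3 deepest falls, tested genes were ranked by the root mean square distance of their centred log2 CPM (counts relative to library size) over the 6 libraries. The nearest to SLC1A4 were PCK2, the mitochondrial form of phosphoenolpyruvate carboxykinase (distance 0.071), CENPI and SMC1A. Nearest to SLC7A11 were NCAPH (distance 0.031), CDCA5 and UHRF1, and nearest to SLC6A9 were XRCC2 (distance 0.034), MAD2L1 and E2F8. With groups this far apart, a small distance largely reflects a log2 fold change of similar size. Those of the genes named here ran from -2.14 for PCK2 to -1.61 for E2F8. PCK2 went from 17.9 to 3.76 FPKM on average, a log2 fold change of -2.14 (SE 0.083, adjusted p = 6.1e-07 from edgeR). NCAPH went from 13.8 to 3.90 FPKM, with -1.72 (SE 0.072, adjusted p = 7.9e-07 from edgeR). XRCC2 went from 3.54 to 1.05 FPKM, with -1.64 (SE 0.098, adjusted p = 3.3e-06 from edgeR).

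The remaining amino acid transporters of the plasma membrane were mostly below 1 FPKM in these cells. Of 31 such genes 26 were listed and 5 had a mean of at least 1 FPKM, of which 1 rose and 1 fell (median log2 fold change -0.11). These counts stand beside 30.0% called higher and 31.4% called lower over all tested genes. SLC7A2 (CAT2), a carrier of arginine and lysine like SLC7A1, rose from 3.85 ± 0.242 to 7.68 ± 0.450 FPKM, with a log2 difference of 1.10 (SE 0.069, adjusted p = 4.4e-06 from edgeR). SLC36A4 went from 3.06 ± 0.0448 to 2.43 ± 0.303 FPKM, with a log2 fold change of -0.23 (adjusted p = 0.043 from edgeR), a call that held in 9 of 16 alternatives and was lost without any 1 of the 3 NC libraries or of siGDF15 replicates 2 and 3 (adjusted p up to 0.14). Among the genes under the filter, named after their values were seen, SLC7A7, another light chain of SLC3A2, was at 0.531 ± 0.0857 FPKM in NC and 1.04 ± 0.0716 FPKM in siGDF15, and SLC43A2, a relative of SLC43A1, at 0.537 ± 0.0568 and 1.08 ± 0.136 FPKM. Others went the other way without overlap, SLC6A17 from 0.762 ± 0.0982 to 0.289 ± 0.0796 FPKM and SLC3A1 from 0.402 ± 0.104 to 0.212 ± 0.0235 FPKM. Genes under the filter were not tested, and among tested genes 68.4% had groups that did not overlap.

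Of 25 carriers of amino acids in lysosomes, vesicles and mitochondria 17 were tested, of which 6 rose, 5 fell and 6 did not pass, with a median log2 fold change of 0.02. Over all tested genes 30.0% were called higher and 31.4% lower, so these counts are near the background. MFSD12, needed for cysteine import into lysosomes, averaged 13.8 FPKM in NC and 27.4 FPKM in siGDF15 and rose by 1.09 on the log2 scale (SE 0.057, adjusted p = 1.8e-06 from edgeR). CTNS, the cystine exporter of lysosomes, rose by 0.70 and SLC25A38, a mitochondrial glycine carrier, by 0.37 on the log2 scale. SFXN1, the mitochondrial serine carrier, fell from 10.9 ± 0.469 to 5.78 ± 0.371 FPKM, with a log2 difference of -0.81 (SE 0.063, adjusted p = 1.4e-05 from edgeR). SLC25A15, the mitochondrial ornithine carrier, fell by 0.81 and SLC36A1 by 0.65 on the log2 scale.

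Cystine brought in by SLC7A11 feeds glutathione synthesis, and 14 of 17 genes of glutathione and cysteine metabolism were tested. Of these 5 rose and 7 fell (median log2 fold change -0.17), against 30.0% and 31.4% of all tested genes. CHAC1, which degrades glutathione, fell by 2.03 on the log2 scale, from 17.6 ± 1.90 to 3.97 ± 0.707 FPKM. CTH, which makes cysteine from cystathionine, fell by 1.07 and GGCT by 0.84. In the other direction GPX4, the glutathione-dependent peroxidase of membrane lipids, was at 65.6, 72.0 and 66.4 FPKM in NC and at 116, 119 and 121 FPKM in siGDF15 and rose by 0.91 on the log2 scale (SE 0.049, adjusted p = 2.1e-06 from edgeR). GGT1 rose by 0.95 and GGT7 by 0.49 on the log2 scale. GGT1 averaged 0.933 FPKM in NC and 1.69 FPKM in siGDF15, so it passed the filter only through siGDF15.

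Of 21 regulators and targets of the stress responses that act on these transporter genes, 20 were tested, 3 rose and 10 fell (median log2 fold change -0.31), where 30.0% of all tested genes were called higher and 31.4% lower. ASNS, asparagine synthetase, fell by 2.70 on the log2 scale, from 31.6 ± 1.45 to 4.50 ± 0.275 FPKM, and CEBPG, a dimer partner of ATF4, fell by 0.98. ATF4 itself, named after its values were seen, fell by 0.35 (adjusted p = 2.6e-04 from edgeR), with 192 ± 7.21 FPKM in NC and 140 ± 0.545 FPKM in siGDF15. KEAP1, which holds NRF2 in check, fell by 0.57, while DDIT3 rose by 0.48, CEBPB by 0.29 and PPP1R15A by 0.24 on the log2 scale, the last a call lost when counts were scaled by their total alone. NFE2L2, the gene of NRF2 and also named after its values were seen, was at 8.80 ± 0.258 FPKM in NC and 7.79 ± 0.269 FPKM in siGDF15 and did not pass.

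Imported amino acids are sensed by the mTORC1 pathway at the lysosome. Of 32 genes of this pathway 29 were tested, 15 rose, 4 fell and 10 did not pass (median log2 fold change 0.25), beside 30.0% called higher and 31.4% lower over all tested genes. RRAGB, one of the Rag GTPases, rose from 3.00 ± 0.405 to 9.22 ± 0.759 FPKM, with a log2 difference of 1.72 (SE 0.11, adjusted p = 4.2e-06 from edgeR). The arginine sensor CASTOR1 rose by 0.87 and its relative CASTOR2 by 0.78 on the log2 scale. FNIP2 fell by 0.80, SESN1 by 0.41 and RHEB, the activator of mTORC1, by 0.36. FNIP2 averaged 1.59 FPKM in NC and 0.846 FPKM in siGDF15, so it passed the filter only through NC. SLC38A9 is on this list and on that of organelle carriers, and SESN2 on this list and on that of stress responses.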

How the data were processed

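RNA of 3 NC and 3 siGDF15 libraries was compared, grouped by sample title. The authors deposited FPKM values from StringTie and expected counts that they derived from transcript coverage, on GRCh38. The submitters' processing notes also name fastp, HISAT2 and edgeR, and the annotation release is not given in the sources used here. Expected counts are not a tally of reads, and 1 read pair was taken to be worth about 4 counts. Intervals rest on the spread between libraries. Counts were normalized by TMM (factors 1.03 to 1.04 in NC and 0.958 to 0.972 in siGDF15), which places fitted fold changes slightly above ratios of FPKM means. Genes averaging 1 FPKM or more were tested with edgeR 4.0.16 (two-sided quasi-likelihood test, Benjamini-Hochberg adjustment), standard errors coming from the fold change and its F statistic. limma 3.58.1 and DESeq2 1.42.0 served as alternatives, in R 4.3.3, beside other scalings, filters, the replicate block and each library left out. Ratios were tested by exact permutation with scipy 1.17.1. The edgeR step was tested on simulated data in which far fewer genes changed than were called here, as many up as down. That test therefore does not cover a shift as broad as this one. Named genes were the 10 members, up to 3 called genes per direction with the largest change and no overlap from each other list, 3 nearest genes for each of the 3 most changed members, and GDF15. The members and lists were chosen with earlier results of these data known. Protein sequences were not used here. GO, KEGG and Reactome annotation columns of the table were not used.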

Additional observations from a re-analysis of the deposited data

How the results depend on the processing

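Of 16 alternatives, limma on log2 FPKM changed the test, the input and the scaling together, DESeq2 the test and the scaling, and the others 1 choice each. Calls of the 7 fallen transporters held in all 16, and 3 members always passed the fold threshold. The number of members called was 7 in 13 alternatives and 8 in the other 3, where SLC7A5 passed: upper quartile scaling (0.39), the replicate block (0.39, adjusted p = 0.034 from edgeR) and without NC replicate 3 (0.55). Signs turned for SLC3A2 (-0.18 to 0.083 with each library left out, positive without NC replicate 3) and for SLC38A2 (-0.074 to 0.023 with each library left out, positive without NC replicate 2 and, at 0.019, without siGDF15 replicate 2, and 0.0046 with upper quartile scaling), with no call. Genes past the fold threshold numbered 927, but 560 with limma on log2(FPKM + 1), which shrinks low genes, 1669 at a mean of 0.1 FPKM or more and 1659 with no filter, where more genes were tested. For the other plasma membrane transporters, 2 were called, but 1 with upper quartile scaling, 6 at a mean of 0.1 FPKM or more, 5 with no filter and 1 to 3 with each library left out (1 without NC replicate 1 or siGDF15 replicate 2 or 3). Scaling by the total alone moved the median of all tested genes to -0.099 and that of the members to -0.57. Counts of calls in the other lists stayed within 1.5 times, and the 6 ratios kept their direction and moved by less than their spread.

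Deviations of same-numbered NC and siGDF15 libraries from their group means correlated at 0.028, -0.075 and 0.046 over genes, so the numbers were not taken to pair samples. As a block they gave 6906 calls in place of 7286, and not every library correlated best with its own number. Depth did not limit the members, whereas 26 of 31 other plasma membrane transporters were not tested, being under the filter or not listed.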

Other observations

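SNHG1, a noncoding RNA host gene named after its values were seen, lies 71 bases from SLC3A2 on the opposite strand. It was at 21.5, 17.8 and 25.4 FPKM in NC and at 15.4, 14.2 and 14.2 FPKM in siGDF15. In NC the ratio of SLC3A2 to SNHG1 was 2.45, 2.46 and 2.45, while SLC3A2 alone varied 1.42-fold between these libraries. In siGDF15 the ratio was 2.90, 3.38 and 3.47, above every NC library. SNHG1 had a log2 fold change of -0.46 (SE 0.12, adjusted p = 0.0097 from edgeR), and the ratio was not tested.

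Most members varied less between siGDF15 than between NC libraries. The range from the lowest to the highest library was wider in NC for 80% of the 10 members and for 62.4% of all tested genes. It was 1.19-fold in NC and 1.006-fold in siGDF15 for SLC1A5, and 1.42-fold and 1.10-fold for SLC3A2. SLC6A9 and SLC38A1 went the other way, with 1.10-fold in NC and 1.20-fold in siGDF15 for SLC6A9 and 1.04-fold and 1.07-fold for SLC38A1.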
